A study of Mus musculus with 8 samples.

Results

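The receptors for neurotrophins and for ligands of the GDNF family were followed here as 9 genes, out of 19938 genes measured by a transcript cluster that carries a single gene symbol. They are the neurotrophin receptor kinases Ntrk2 (TrkB) and Ntrk3 (TrkC), the shared neurotrophin receptor Ngfr, the sorting receptor Sort1, the TrkB ligand Bdnf, the receptor kinase Ret and its co-receptors Gfra1, Gfra2 and Gfra3. Members were matched by symbol, with the brightest cluster per gene taken, and each of the 9 turned out to have a single cluster. RNA of Neuro2a cells, an established neuroblastoma line from AJ mice, was measured on Affymetrix mouse gene arrays, with 4 anchorage dependent (AD) and 4 anchorage independent (AI) samples. The labels call the samples of each phenotype biological replicates, and the series design calls them independent cultures, while the methods speak of replicate hybridizations, so the p-values measure the spread between these samples, which may in part be technical. AD cells had been grown attached in DMEM with 10% fetal bovine serum, penicillin/streptomycin and L-glutamine. AI cells, labelled anoikis resistant, had been grown as detached tumorspheres in NeuroCult NSC Basal medium with Proliferation supplements, EGF (20 ng/ml), bFGF (10 ng/ml) and heparin (2 µg/ml). Attachment, serum and growth factors thus differed together between the phenotypes and cannot be told apart.

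Neurotrophins are secreted survival and differentiation factors of the nervous system that act through Trk receptor kinases. Ngfr, a receptor of the TNF receptor family, binds all of them, and with Sort1 it binds their uncleaved precursors. GDNF family ligands bind a GFRα protein anchored in the membrane, and the pair then engages the kinase Ret. GFRα1 is the preferred co-receptor of GDNF, GFRα2 that of neurturin and GFRα3 that of artemin. In neuroblastoma, a tumor of the sympathetic lineage, TrkC has been linked with favorable disease, whereas TrkB together with BDNF has been linked with aggressive disease.

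The cell type was checked against marker genes first. All 13 measured markers of sympathetic neuroblasts reached the median signal of their own array on at least 1 array. Of these, 3 were called by the rule given below, all higher in AD cells: Dbh, the enzyme that makes noradrenaline, with a log2 ratio of 3.01, Phox2a with 1.13 and Th, the first enzyme of catecholamine synthesis, with 0.60. With no fold required, 7 passed an adjusted p of 0.05 in limma as higher in AD cells and 2 as higher in AI cells. Those 2 were Chgb with a log2 ratio of -0.49 and Gata2 with -0.23. That p alone was reached by 21.7% of all named genes, and a call by 4.41%. The mean of this list was 9.41 to 9.54 log2 in the AD arrays and 9.01 to 9.13 log2 in the AI arrays, higher in AD cells as were Ntrk3, Ngfr and Gfra2. Dbh, with the largest ratio of the list, weighs most in the difference between these means. The ratios of the list ran from -0.49 to 3.01 with a median of 0.31. Hand2, Chga and Stmn2 were near 0, at -0.004, 0.06 and -0.05. The part of these markers in the results was not tested. The arrays' medians ran from 5.82 to 5.99 log2. All 5 immune markers, 4 of 6 fibroblast markers, 3 of 4 endothelial markers and 4 of 5 Schwann cell and glial markers, among them Sox10, lay below the median of their own array on all 8 arrays. The endothelial marker Pecam1 lay above the median on all 8 arrays, with a log2 ratio of -0.18. The fibroblast markers Pdgfra and Col1a1 did so on some but not all arrays, with 0.08 and 0.002. Their part in the results was not tested. The mean of the glial list was 5.80 to 5.99 log2 in the AD arrays and 5.88 to 5.94 log2 in the AI arrays. Erbb3, the glial marker above the medians, had a ratio (AD over AI, log2) of -0.52 (adjusted p = 0.0017 from limma), and its part in the results was not tested. No marker was at 0, since every deposited log2 signal is above 0.

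Of the 9 genes, Ntrk3, Ngfr and Gfra2 were higher in AD cells, Gfra1 was higher in AI cells, and the other 5 were not called. A gene is called when its adjusted p is under 0.05, from limma with Benjamini-Hochberg adjustment over all 35556 transcript clusters, and the phenotypes differ at least 1.5-fold. By the same rule 4.41% of all named genes were called, 2.02% as higher in AD cells and 2.4% as higher in AI cells. Arrays did not overlap between AD and AI for 6 of the 9 genes and for 26.9% of all named genes. The median log2 ratio of the 9 genes was 0.04, beside 0.01 for all named genes. All values are log2 array signals of the same gene in different samples, and levels of different genes are not compared, because each gene has its own probes. RNA was taken from whole cultures, so fewer cells with a transcript and less transcript per cell cannot be told apart.

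**Figure D1:**
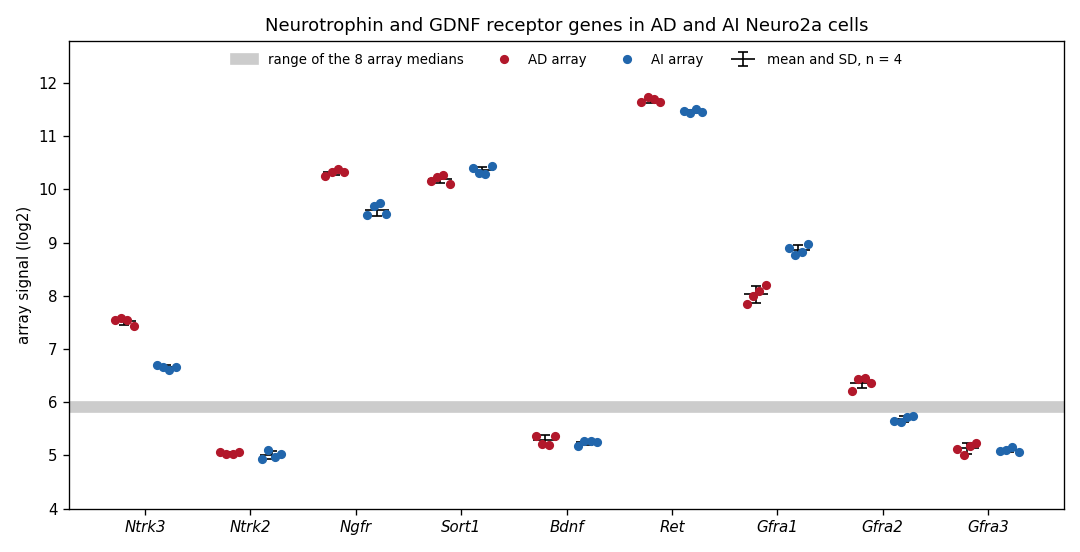
Array signal (log2, vertical axis) of the 9 genes in AD (red) and AI (blue) Neuro2a cells. Each dot is an array, black bars are means with SD (n = 4), and the grey band spans the medians of the 8 arrays, from 5.82 to 5.99 log2. Ntrk3, Ngfr and Gfra2 sit higher in AD cells, Gfra1 sits higher in AI cells, and Ntrk2, Bdnf and Gfra3 lie below the band in both.

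Ntrk3, the receptor for neurotrophin-3, had the largest difference of the 9 genes. Its signal was 7.54, 7.58, 7.55 and 7.43 log2 in the AD replicates 1 to 4. In the AI replicates 1 to 4 it was 6.70, 6.66, 6.60 and 6.66 log2. Every AD array lay above every AI array, and within each phenotype the arrays lay close together. The means were 7.53 ± 0.07 log2 in the AD arrays and 6.66 ± 0.04 log2 in the AI arrays (SD, n = 4 each). Ntrk3 was thus 1.83-fold higher in AD cells, with a 95% confidence interval of 1.68-fold to 1.99-fold. The log2 ratio of 0.87 had a standard error of 0.05 (adjusted p = 1.68e-05 from limma, and p = 0.0286 in the exact two-sided permutation test, the smallest that 4 arrays against 4 allow). Only 1.31% of named genes had a larger log2 ratio in either direction. The cluster's accessions include more than 1 Ntrk3 transcript, and the signal does not part the kinase form from the truncated form.

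Ntrk2, the gene for TrkB, gave a low signal in both phenotypes. It was 5.07, 5.03, 5.03 and 5.07 log2 in the AD arrays and 4.93, 5.09, 4.97 and 5.02 log2 in the AI arrays. All 8 values lay below the median of their own array, and the phenotypes overlapped. The log2 ratio was 0.04, with a 95% confidence interval of -0.08 to 0.16 (adjusted p = 0.653 from limma). At signals this low, a difference could be hidden in the background of the array. Bdnf, the ligand of TrkB, was in the same position. It was 5.37, 5.22, 5.19 and 5.37 log2 in the AD arrays and 5.18, 5.28, 5.27 and 5.26 log2 in the AI arrays, again below the median of every array. Its log2 ratio was 0.04, with an interval of -0.10 to 0.18 (adjusted p = 0.72 from limma).

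Ngfr, which binds every neurotrophin and their precursors, was higher in AD cells too. It was 10.25, 10.33, 10.38 and 10.32 log2 in AD cells. In AI cells it was 9.52, 9.69, 9.74 and 9.54 log2. The groups did not overlap, and AI replicates 2 and 3 lay slightly above AI replicates 1 and 4. The difference was 1.62-fold, with a 95% confidence interval of 1.46-fold to 1.80-fold that reaches below 1.5-fold (log2 ratio 0.70, standard error 0.07, adjusted p = 0.000169 from limma). Sort1, the partner of Ngfr for precursors and a sorting receptor in its own right, went slightly the other way without being called. It was 10.17, 10.23, 10.27 and 10.11 log2 in the AD arrays and 10.40, 10.32, 10.30 and 10.43 log2 in the AI arrays. The arrays did not overlap, yet the log2 ratio was -0.17, with an interval of -0.30 to -0.04 (adjusted p = 0.0765 from limma). A difference of 1.5-fold lies outside that interval.

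**Figure D2:**
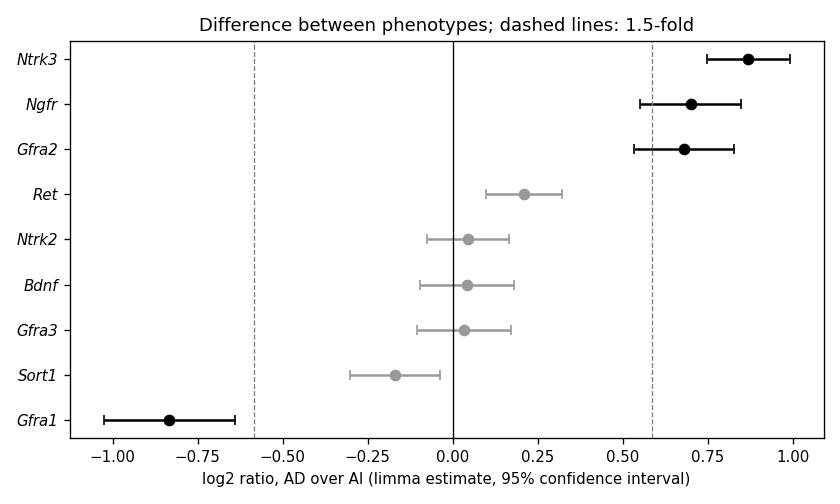
Log2 ratio of AD over AI (horizontal axis) for each of the 9 genes, with its 95% confidence interval from limma over 8 arrays. Black points are called, grey points are not, and dashed lines mark 1.5-fold. Ntrk3, Ngfr and Gfra2 lie to the right at 0.87, 0.70 and 0.68, and Gfra1 lies to the left at -0.83.

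Ret, the signaling kinase shared by all GFRα co-receptors, differed little. Its signal was 11.64, 11.74, 11.70 and 11.64 log2 in the AD arrays and 11.47, 11.44, 11.51 and 11.46 log2 in the AI arrays. No AI array reached an AD array, and all lay far above the array medians in both phenotypes. The log2 ratio was 0.21, with a 95% confidence interval of 0.10 to 0.32 (adjusted p = 0.0175 from limma). Ret thus passed the p threshold toward AD cells at 1.16-fold, and its interval ends at 1.25-fold, under the 1.5-fold that a call requires.

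The co-receptors of Ret moved in opposite directions. Gfra1, the co-receptor for GDNF, was 7.84, 7.99, 8.09 and 8.21 log2 in AD cells. In AI cells it was 8.90, 8.76, 8.83 and 8.98 log2. All AI arrays lay above all AD arrays, and the AD arrays were spread more widely (SD 0.16) than those of any other of the 9 genes in either phenotype. Gfra1 was 1.78-fold higher in AI cells, with an interval of 1.56-fold to 2.04-fold (log2 ratio of AD over AI -0.83, standard error 0.09, adjusted p = 0.000256 from limma). In the other direction, Gfra2, the co-receptor for neurturin, was 6.22, 6.43, 6.45 and 6.35 log2 in the AD arrays and 5.65, 5.62, 5.71 and 5.75 log2 in the AI arrays. The AD values lay above the median of every array and the AI values below that of their own. Gfra2 was 1.60-fold higher in AD cells, with an interval of 1.45-fold to 1.77-fold (log2 ratio 0.68, standard error 0.07, adjusted p = 0.000185 from limma), and because its AI signal is near background the ratio is not known exactly.

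Gfra3, the co-receptor for artemin, was 5.12, 5.00, 5.17 and 5.23 log2 in the AD arrays and 5.09, 5.10, 5.16 and 5.06 log2 in the AI arrays. These values lay below the median of every array and overlapped, with a log2 ratio of 0.03 and an interval of -0.11 to 0.17 (adjusted p = 0.79 from limma). Within single arrays, the log2 difference of Gfra2 minus Gfra1, counted from its AI mean, was 1.56, 1.62, 1.55 and 1.32 in the AD arrays. It lay between -0.06 and 0.07 in the AI arrays. The AD mean of this difference was 1.51 ± 0.13 log2 (SD, n = 4), with AD replicate 4 showing the smallest value. Its size is not known exactly, since the AI signals of Gfra2 lay below the median of their own arrays. No test was run on it, because it combines genes that were chosen with results known. Without AD replicate 4, the log2 ratios of AD over AI were 0.90 for Ntrk3, 0.70 for Ngfr, 0.68 for Gfra2 and -0.89 for Gfra1, and all 4 genes were still called.

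**Figure D3:**
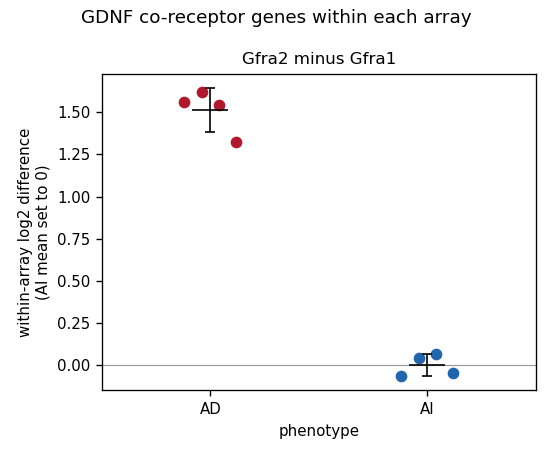
Log2 difference of Gfra2 minus Gfra1 within each array (vertical axis, AI mean set to 0). Dots are arrays, red for AD and blue for AI, and black bars are means with SD (n = 4). The AD mean is 1.51 log2, a value that is not known exactly because the Gfra2 signal of the AI arrays is near background.

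The bases before the start sites of Ngfr and Gfra1 are shown because these genes were called in opposite directions and RefSeq (mouse assembly GRCm38.p6) gave a window for each. The study turns on Id2, which the paper reports to bind TGFβ and Smad proteins and proposes to compete for the retinoblastoma protein. Id proteins also keep E proteins from binding the E-box, which the paper did not examine. E-boxes were searched for that reason. The motif was CANNTG, which reads the same on both strands, and it is set in capitals in the 250 bases before each start, 5′ to 3′ in the direction of the gene. The windows are chr11:95587699-95587948 for Ngfr and chr19:58455399-58455648 for Gfra1, both on the minus strand.
Ngfr: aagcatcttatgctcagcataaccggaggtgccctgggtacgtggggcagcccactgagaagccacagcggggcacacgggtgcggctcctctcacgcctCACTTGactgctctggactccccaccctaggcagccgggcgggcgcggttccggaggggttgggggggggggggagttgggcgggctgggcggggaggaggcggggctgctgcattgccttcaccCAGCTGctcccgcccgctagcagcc
Gfra1: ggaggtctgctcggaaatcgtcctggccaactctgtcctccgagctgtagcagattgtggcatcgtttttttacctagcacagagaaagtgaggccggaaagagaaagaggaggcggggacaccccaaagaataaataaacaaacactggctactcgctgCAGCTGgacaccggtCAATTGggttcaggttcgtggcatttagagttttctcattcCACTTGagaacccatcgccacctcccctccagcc
The Ngfr window held 2 E-boxes, starting 150 and 25 bases before the start. The Gfra1 window held 3, starting 90, 75 and 34 bases before it. Of all 32851 RefSeq windows of this length, 66.2% held at least 1 such motif, 31.8% held at least 2 and 12.2% held at least 3. Windows of Ntrk2 and Bdnf were also given, so that 4 of the 9 genes could be searched. The Ntrk2 window held 1 E-box, and the 7 Bdnf windows held none to 2 each. GGGCGG, searched on both strands, occurred 4 times in the Ngfr window, 2 times and 1 time in a pair of the Bdnf windows and not in those of Gfra1 and Ntrk2. Of all windows, 32.7% held it at least 1 time, 16.7% at least 2 times and 4.09% at least 4 times. The Ngfr window had 70.4% G and C and the Gfra1 window 52.4%, against a median of 52.4% over all windows. A match describes the letters of a window and shows no binding.

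Of the ligands and other receptors of the pathways, 17 of 20 listed genes were measured and 1 was called, beside 4.41% of all named genes. The called gene was Ncam1, a neural adhesion molecule that can serve as a receptor for GDNF together with GFRα1. It was 10.64, 10.65, 10.76 and 10.72 log2 in the AD arrays and 9.91, 9.91, 10.03 and 10.05 log2 in the AI arrays. Every AD array was above every AI array (log2 ratio 0.72, standard error 0.06, adjusted p = 7.67e-05 from limma). Ncam1 was thus higher in the phenotype in which Gfra1 was lower. Over the list, the median log2 ratio was 0.04, and 11 of the 17 measured genes lay below the median of their own array on every array.

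None of the measured ligand genes was called. Gdnf had a log2 ratio of 0.06, the neurturin gene Nrtn 0.09, the persephin gene Pspn 0.04 and the neurotrophin-4 gene Ntf5 -0.03. Gdnf, Pspn and Ntf5 lay below the median of their own array on every array. Nrtn did so on 3 of 4 AD arrays and on all 4 AI arrays. A difference in these 4 genes could thus be hidden in the background. Artn, the gene for artemin, was 4.80, 4.85, 4.89 and 4.83 log2 in the AD arrays and 5.23, 5.05, 5.26 and 5.32 log2 in the AI arrays. It passed the p threshold toward AI cells (log2 ratio -0.38, adjusted p = 0.00443 from limma) under 1.5-fold, with all values below the array medians. Gfra4, the co-receptor for persephin, had 0.24 (adjusted p = 0.0437 from limma), likewise below the medians and not called. The related receptor Gfral had -0.22, also with all values below the array medians.

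Receptors that work beside these families also went uncalled. The sortilin relatives Sorcs1, Sorcs2, Sorcs3 and Sorl1 had log2 ratios of 0.06, -0.09, 0.13 and 0.05. All their values lay below the median of their own array, except 1 AI array of Sorcs2, so a difference could be hidden in the background. Nradd, a relative of Ngfr, had -0.01. Lingo1, Rtn4r and Tnfrsf19, which belong to the Nogo receptor complex in which Ngfr can take part, had -0.08, 0.01 and 0.02. Rtn4r and Tnfrsf19 lay below the array medians throughout, while Nradd and Lingo1 lay above them. Gas1, a GFRα-like protein that can bind Ret, had 0.25 (adjusted p = 0.0551 from limma).

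Among 41 measured adaptors and relay proteins of the receptors, 2 were called, both higher in AD cells, beside 4.41% of all named genes called. Dok4, an adaptor that binds activated Ret, was 8.84, 8.94, 8.83 and 8.84 log2 in the AD arrays and 7.67, 7.68, 7.67 and 7.57 log2 in the AI arrays. This is a 2.32-fold difference with no overlap (log2 ratio 1.21, standard error 0.05, adjusted p = 2.18e-06 from limma), larger than that of any of the 9 genes. Bex1, a small protein that binds Ngfr, was 9.74, 9.85, 9.65 and 9.56 log2 in the AD arrays and 9.12, 8.97, 8.86 and 9.01 log2 in the AI arrays (log2 ratio 0.71, adjusted p = 0.000393 from limma). With no fold required, 5 of the 41 passed an adjusted p of 0.05 in limma as higher in AD cells and 8 as higher in AI cells, and the median log2 ratio was -0.01. That p alone was reached by 21.7% of all named genes.

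The enzymes that process neurotrophin precursors and receptors gave 2 calls among 18 measured genes, in opposite directions, beside 4.41% of all named genes called. Furin, a protease that cleaves neurotrophin precursors inside the cell, was 9.60, 9.73, 9.74 and 9.67 log2 in the AD arrays and 8.74, 8.92, 8.82 and 8.83 log2 in the AI arrays. It was 1.81-fold higher in AD cells, with no overlap (log2 ratio 0.86, standard error 0.06, adjusted p = 2.88e-05 from limma). Mmp9, a matrix protease that also acts on neurotrophins outside the cell, was 5.53, 5.73, 5.69 and 5.997 log2 in the AD arrays and 6.82, 6.88, 6.69 and 6.66 log2 in the AI arrays. It was 2.03-fold higher in AI cells (log2 ratio of AD over AI -1.02, standard error 0.10, adjusted p = 0.000194 from limma). In AD cells 3 of its 4 values lay below the median of their array, so the size of that difference is uncertain. The median log2 ratio of this list was 0.03.

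**Figure D4:**
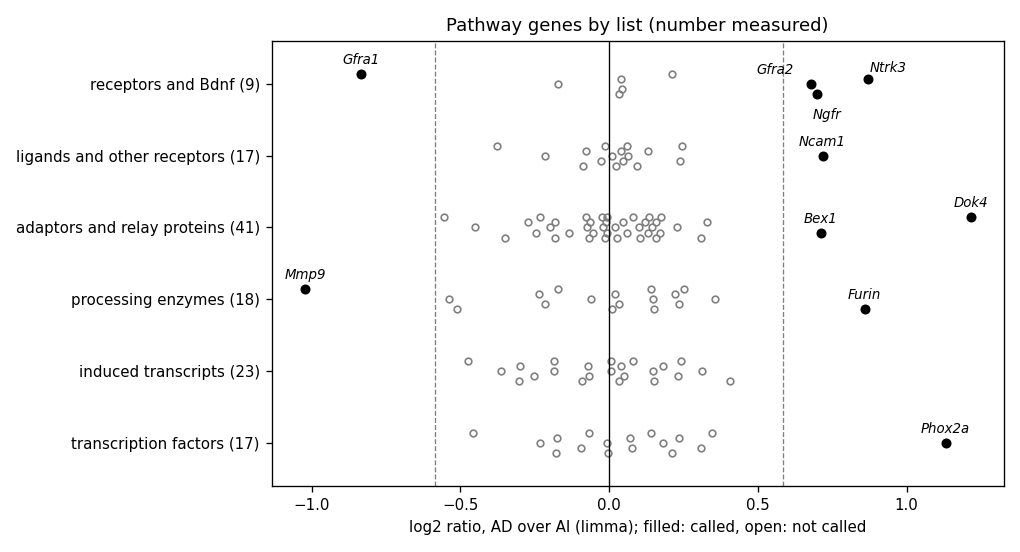
Log2 ratio of AD over AI (horizontal axis, limma over 8 arrays) of the 9 genes and of the measured genes in the 5 pathway lists, 1 list per line with its number of genes. Filled dots are called and named, open dots are not called, and dashed lines mark 1.5-fold; the vertical spread within a line carries no value. The called genes outside the 9 are Ncam1, Dok4, Bex1, Furin, Phox2a and Mmp9.

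None of 23 transcripts that neurotrophins are known to induce was called, beside 4.41% of all named genes. With no fold required, 1 passed an adjusted p of 0.05 in limma as higher in AD cells and 4 as higher in AI cells, and 13 had an unadjusted limma p under 0.05, beside 33.3% of all named genes with such an unadjusted p and 21.7% with such an adjusted p. The analysis of variance of the methods called none either. In this list the log2 ratios ran from -0.48 to 0.41, and 11 of the 23 did not overlap between the phenotypes, and neither did 26.9% of all named genes. The median log2 ratio was 0.01. Whether neurotrophins acted in these cultures was not tested, and serum, EGF and bFGF also differed between the phenotypes. Against 4.41% of all named genes, 1 of 17 measured transcription factors linked to expression of these receptors was called, namely Phox2a. This homeodomain factor of noradrenergic neurons, which is tied to Ret in autonomic neurons, was 9.60, 9.82, 9.74 and 9.39 log2 in AD cells. It was 8.57, 8.47, 8.55 and 8.43 log2 in AI cells, which gives 1.13 as the log2 ratio (standard error 0.09, adjusted p = 6.97e-05 from limma). Runx3, which is tied to TrkC in sensory neurons, had a log2 ratio of -0.18 and Runx1 had 0.14, and neither was called. The median of the list was 0.07.

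The genes whose signal over the 8 arrays was most like that of each called member were found by Pearson's r across all named genes. These are descriptions, since r over arrays of 2 phenotypes mostly follows the difference between them. For Ntrk3 the nearest genes were Id2, the helix-loop-helix inhibitor, the serotonin receptor gene Htr3a and Smad9, with r = 0.999 each, and 605 genes had r over 0.95. For Gfra2 they were Smad7, an inhibitory Smad (r = 0.993), Hmgn1 (r = 0.992) and Ehd3 (r = 0.99), with 307 genes over 0.95. For Ngfr they were Fbxo33 (r = 0.994), Ampd3 (r = 0.994) and Bdh2 (r = 0.989), with 223 genes over 0.95. For Gfra1, higher in AI cells, they were the secretory granule gene Scg5 (r = 0.995), the sterol synthesis gene Lss (r = 0.995) and Arhgap33 (r = 0.992), with 497 genes over 0.95.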

How the data were processed

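RNA of 4 AD and 4 AI samples of Neuro2a cells was labelled and hybridized to 1 Affymetrix mouse gene array each. The deposited table gives log2 signals, produced by the authors with GCRMA; the submitters' notes name Partek 6.5, and the methods name other versions and normalizations, which were not used here. The 35556 transcript clusters were named by the platform annotation: 21789 carry a single symbol, 1621 several and 12146 none usable. Phenotypes were taken from the sample titles. The phenotypes were tested against each other by limma 3.58.1 (R 4.3.3), using lmFit and eBayes without covariates. Python 3.11.15, pandas 2.3.3, numpy 2.4.6 and matplotlib 3.10.9 served for permutation tests, tables and plots. Genes with several clusters were represented by the brightest. The model was tested on simulated data. The 9 genes, the lists and the named genes (all 9, every called gene of the lists, all ligands and other receptors, and 3 nearest genes per called member) were chosen with earlier results of these data known. Other genes named from the lists, and markers, were picked after their values were seen. Some listed genes are not reported here. Arrays give no counts, and their number limits the precision. Alternatives were quantile normalization, median centring, a filter on dim clusters, the methods' analysis of variance, trended robust moderation, array weights, a replicate block, the mean of a gene's clusters and each array left out.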

Additional observations from a re-analysis of the deposited data

Results flagged for a closer look

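Of 62 groups of 4 arrays examined, for 31 genes, 3 held an array whose gap to the nearest other array took more of the group's range than Dixon's 95% critical value; chance gives about 5%, and 4.84% were found. Dok4 in AD replicate 2 was 8.94 log2, above the other AD arrays by 0.09. Dok4 in AI replicate 4 was 7.57 log2, below the other AI arrays by 0.10. Rtn4r in AI replicate 1 was 5.71 log2, above the other AI arrays by 0.11. None of the 9 receptor and ligand genes was among them.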

How the results depend on the processing

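The 4 calls among the 9 genes (Ntrk3, Ngfr and Gfra2 higher in AD cells, Gfra1 higher in AI cells) held in all 16 alternatives. Over these, the log2 ratio of AD over AI ran from 0.85 to 0.95 for Ntrk3, 0.67 to 0.78 for Ngfr, 0.65 to 0.76 for Gfra2 and -0.89 to -0.76 for Gfra1, and no other of the 9 was called. The adjusted p of Ret ran from 0.00275 to 0.0638 and that of Sort1 from 0.0243 to 0.38, so their side of the p threshold depends on the setting while the fold stays under 1.5. Gfra3, at 0.03, turned to -0.0013 without AD replicate 4, with -0.0013 to 0.0754 over the arrays left out in turn. The filter at the 40th percentile of mean signal removed Ntrk2, Bdnf and Gfra3. The counts called in the lists of ligands and other receptors, adaptors, induced transcripts and transcription factors were the same in every alternative, and 3 processing enzymes in place of 2 were called with array weights and without AD replicate 4. Called clusters numbered 1180 to 1636 over the alternatives, and the share of them that was higher in AI cells moved from 64.5% to 47.0% with median centring, which shifted the median of all clusters by 0.08 log2. Equal replicate numbers did not deviate together (correlations of -0.17 to 0.08), and with the replicate block 1352 clusters in place of 1396 and the same 4 of the 9 genes were called.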
